A study of Mus musculus with 40 samples.

Results

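Brown-like adipocytes at day 9 of induced browning were compared between HMGN double knockout (DKO) and wild-type (WT) cells, using the 3 WT and the 3 DKO H3K27ac peak lists of that day, which are 6 of the 24 H3K27ac libraries in the series. The members were chosen by genotype and day alone, not by any measured value. Preadipocytes came from the inguinal white adipose tissue of C57BL/6 mice, either WT or Hmgn1-/- and Hmgn2-/- (a loss of both genes in every tissue of the animal), and were grown on collagen to confluency. Both genotypes then received the same differentiation medium with insulin, dexamethasone, IBMX, T3 and rosiglitazone, followed by maintenance medium with insulin and T3, so every adipogenic agent was shared by the controls. The question was where the acetylation landscape of the end stage of browning differs when HMGN1 and HMGN2 are missing.

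HMGN1 and HMGN2 belong to a family of small chromatin proteins that contact the nucleosome core particle and compete with linker histones. H3K27ac, acetylation of lysine 27 on histone H3, marks active enhancers and promoters, and chromatin immunoprecipitation sequencing (ChIP-seq) reports it as peaks of read pile-up. White preadipocytes that are driven toward a brown-like state keep the general adipocyte programme under PPARG and C/EBP factors, and add genes for fat burning and heat production such as Ucp1, Cidea, Elovl3 and the PGC-1 coactivators.

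The deletion was first looked up at the targeted genes. Hmgn2 carried 1.40, 1.31 and 1.34 kb under peaks in the 3 WT libraries and none in the 3 DKO libraries (log2 difference −2.05 ± 0.15 SE, adjusted p = 1.7e-04). Both WT peaks of its promoter region were gone, one of them at chr4:133966406-133967264 with 38, 43 and 37 reads at the summit in WT. At Hmgn1 the promoter peak (chr16:96125983-96127747) was present in all 6 libraries and was higher in DKO, with 24, 37 and 34 summit reads in WT against 92, 53 and 53 in DKO (log2 0.87 ± 0.16 SE, adjusted p = 0.0044). The part of each gene that was deleted is not given in the sources used here, so the Hmgn1 promoter peak checks nothing about the deletion, whereas the Hmgn2 promoter behaved as labelled in 6 of 6 libraries. Whether DKO cells keep the DNA under the Hmgn2 peaks was not tested, so the values of Hmgn2 here and below are not read as a loss of acetylation.

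The regions around which the results below turn are printed here as the 201 bases centred on the summit, read 5′ to 3′ on the plus strand of mm10 from the RefSeq assembly of that build. The Hmgn2 stretch (chr4:133966959-133967159, promoter region, overlapping an annotated coding exon) lost its peak in DKO. The Ucp1 stretch (chr8:83278340-83278540, 11.9 kb upstream) and the Ppara stretch (chr15:85723972-85724172, 10.9 kb upstream) gained signal. The Kcnj15 stretch (chr16:95244271-95244471, 13.2 kb from the nearest start) also gained signal. The Galnt9 stretch (chr5:110604669-110604869, intron) and the Scara3 stretch (chr14:65943608-65943808, intron, absent from DKO) lost signal. Capitals mark an AP-1 motif, the only one of the 8 motifs searched that occurs in any of the 6 stretches.
Hmgn2: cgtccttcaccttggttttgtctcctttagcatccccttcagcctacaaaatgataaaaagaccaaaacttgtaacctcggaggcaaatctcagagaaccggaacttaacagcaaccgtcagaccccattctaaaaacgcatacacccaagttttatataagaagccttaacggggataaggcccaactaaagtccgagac
Ucp1: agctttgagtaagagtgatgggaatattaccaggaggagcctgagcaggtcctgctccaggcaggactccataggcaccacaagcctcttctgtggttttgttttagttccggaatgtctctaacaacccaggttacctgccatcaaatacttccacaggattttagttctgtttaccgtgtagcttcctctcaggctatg
Ppara: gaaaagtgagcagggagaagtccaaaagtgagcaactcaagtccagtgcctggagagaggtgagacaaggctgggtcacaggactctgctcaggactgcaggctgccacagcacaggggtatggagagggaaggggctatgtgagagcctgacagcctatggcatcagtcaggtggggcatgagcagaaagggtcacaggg
Kcnj15: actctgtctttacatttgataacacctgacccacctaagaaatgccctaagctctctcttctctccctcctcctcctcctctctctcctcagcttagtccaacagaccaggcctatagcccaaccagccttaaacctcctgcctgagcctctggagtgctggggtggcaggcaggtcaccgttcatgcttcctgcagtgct
Galnt9: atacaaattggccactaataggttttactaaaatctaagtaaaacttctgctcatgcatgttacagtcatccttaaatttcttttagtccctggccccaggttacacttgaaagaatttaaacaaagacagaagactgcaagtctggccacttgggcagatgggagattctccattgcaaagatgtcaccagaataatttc
Scara3: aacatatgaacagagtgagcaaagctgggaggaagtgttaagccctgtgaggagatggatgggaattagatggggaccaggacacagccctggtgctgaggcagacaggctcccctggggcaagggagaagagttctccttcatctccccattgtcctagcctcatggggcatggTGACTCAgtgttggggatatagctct

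DKO cells carried a longer stretch of genome under H3K27ac peaks than WT cells at day 9. The 3 WT lists covered 48.2, 59.6 and 58.6 Mb and the 3 DKO lists 68.8, 63.5 and 61.2 Mb, so the groups did not overlap. The difference of 9.09 Mb (16.4% of the WT mean of 55.4 ± 6.32 Mb, SD, n = 3) had an exact two-sided permutation p = 0.1, which is the smallest that 3 against 3 libraries can give. Peak numbers overlapped, with 91488, 111761 and 105173 in WT and 115923, 112348 and 111219 in DKO (exact permutation p = 0.2). Wide peaks took part in the extra length. Peaks of at least 2 kb numbered 1891, 2808 and 2760 in WT against 3987, 3243 and 2979 in DKO (exact permutation p = 0.1), and they covered 7.28 ± 1.58 Mb in WT and 10.1 ± 1.70 Mb in DKO. With the 20000 peaks of highest significance in each list, DKO still covered more, 25.8 ± 1.49 against 23.1 ± 1.596 Mb without overlap of the groups (exact permutation p = 0.1). When every peak was cut to 250 bp on either side of its summit, the covered lengths overlapped (50.2 ± 5.00 Mb in WT and 55.3 ± 1.28 Mb in DKO, exact permutation p = 0.2).

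Depth, as far as the lists show it, overlapped between the genotypes. The background under the narrowest peaks corresponded to 10.9 ± 0.927 reads per kb in WT and 11.5 ± 1.19 in DKO (exact permutation p = 0.7), and the median peak held 18.3 ± 0.577 reads at its summit in WT and 18.7 ± 1.15 in DKO. WT replicate 1 stood apart with the fewest peaks and the shortest length, and DKO replicate 1 with the most of both. Promoter peaks, those with a summit no further than 1 kb from an annotated start, made up 28.0 ± 1.71% in WT and 26.5 ± 0.568% in DKO of the total (exact permutation p = 0.2). In the 20000 highest peaks the direction turned, with 64.8 ± 0.510% in WT and 66.1 ± 0.583% in DKO.

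**Figure D1:**
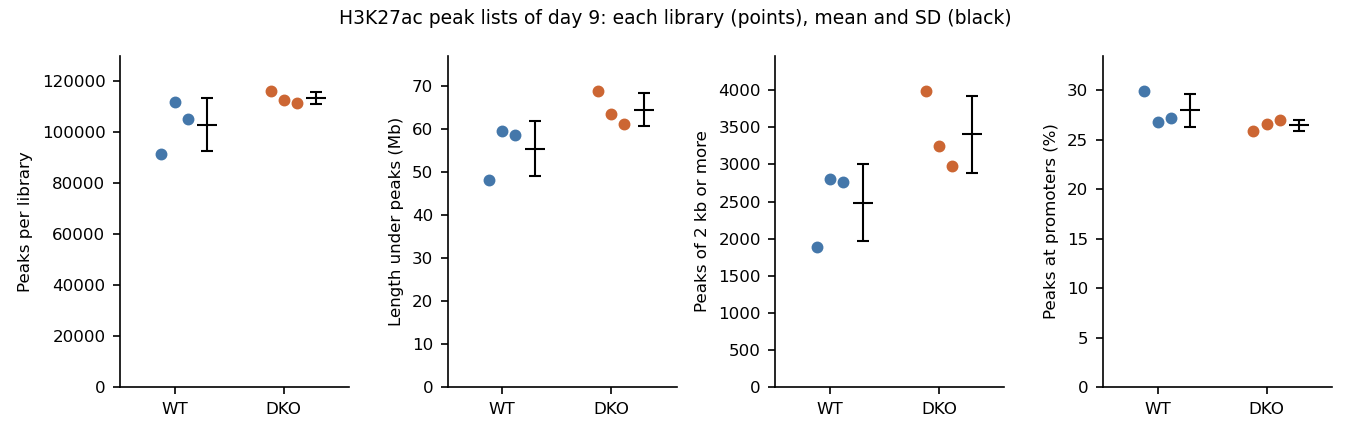
Each point is one H3K27ac library of day 9 (blue WT, orange DKO), with the group mean and SD in black, for the number of peaks, the length under peaks in Mb, the number of peaks of at least 2 kb and the percentage that were promoter peaks. The DKO points lie above all WT points for the length (61.2 to 68.8 against 48.2 to 59.6 Mb) and the wide peaks (2979 to 3987 against 1891 to 2808), and overlap them in the other panels.

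To see which genes took part, the length under peaks was summed for each protein-coding gene from 5 kb upstream to its end, and fitted as log2(kb + 0.5) with each library centred on its median, so that the fitted differences are relative to the median gene (before centring the median gene lay 0.159 higher in DKO on the log2 scale). Of 14294 genes tested, 796 were higher in DKO (5.57%) and 266 lower (1.86%). Without centring the split was 1172 higher and 36 lower. As deposited, the 3 DKO values lay above the 3 WT values in 31.2% of genes and below them in 2.21%. In cell mixtures such as these, more cells of a type and more acetylation per cell cannot be told apart.

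Genes of adipocyte identity were among those higher in DKO. Of the 28 tested genes of general adipocyte identity, 14 rose and none fell, beside the 5.57% and 1.86% of all genes (median log2 difference 0.36, against −0.01 over all genes). Pparg, the master regulator of fat cell formation, had 10.3, 14.5 and 15.8 kb under peaks in WT and 26.6, 25.2 and 23.8 kb in DKO (log2 0.73 ± 0.09 SE, adjusted p = 0.0025). All 3 DKO values exceeded all WT values, by 1.86-fold in the mean. Cd36, the fatty acid transporter, had 16.1, 16.9 and 18.5 kb in WT and 28.1, 26.96 and 25.7 kb in DKO (log2 0.47 ± 0.05 SE, adjusted p = 0.0016). The lipid droplet protein gene Cidec rose by 0.59 (log2, adjusted p = 0.0022). Adipoq, which encodes the hormone adiponectin, went from 5.33 ± 0.522 kb to 7.39 ± 0.437 kb (log2 0.27 ± 0.07 SE, adjusted p = 0.039). The insulin receptor gene Insr, the glucose transporter gene Slc2a4, Acsl1, Aqp7, Adipor2, Rbp4, Retn, Plin4 and Adrb3 complete the 14. The summed length over the list was 197 to 240 kb in the WT libraries and 318 to 340 kb in the DKO libraries, beside sums over all genes that did not overlap either.

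The classes of fat handling had higher members and no lower ones, beside 5.57% higher and 1.86% lower over all genes. The lists share members, so Cidec, Aqp7, Plin4 and Adrb3 count both in lipolysis and among the adipocyte identity genes. In fatty acid and triglyceride synthesis 11 of 25 genes rose and none fell (median 0.18). Fasn, the fatty acid synthase, had 4.70, 5.93 and 5.83 kb in WT and 10.1, 9.21 and 9.99 kb in DKO (log2 0.62 ± 0.07 SE, adjusted p = 0.0018), with no overlap. Lpin1, Thrsp and Agpat2, which act in or regulate lipid synthesis, rose by 0.59, 0.61 and 0.46 on the log2 scale (adjusted p = 0.0026, 0.0032 and 0.0034). Of the lipolysis and lipid droplet genes 9 of 23 rose and none fell (median 0.39), among them the droplet coat genes Plin5 (log2 0.74, adjusted p = 0.0015) and Plin2 (0.44, adjusted p = 0.0039) and the glycerol channel gene Aqp7 (0.87, adjusted p = 0.0054). Of the fatty acid oxidation genes 11 of 33 rose and none fell (median 0.20). Hadha, the alpha subunit of the mitochondrial trifunctional protein, went from 3.05, 3.53 and 3.66 kb to 7.63, 8.11 and 7.32 kb (log2 0.90 ± 0.08 SE, adjusted p = 3.7e-04), and its head-to-head neighbour Hadhb, whose window shares part of these peaks, rose by 0.63 (adjusted p = 0.0056). Ucp3 and the muscle-type carnitine palmitoyltransferase gene Cpt1b rose by 1.06 and 0.52 (adjusted p = 0.0033 and 0.0064).

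Among thermogenic and brown adipocyte genes 10 of 31 rose and none fell (median 0.22), and 9 of the 40 in the list were not tested. The shares over all genes were 5.57% higher and 1.86% lower. Elovl3, a fatty acid elongase of brown fat, had 0.476, 0.644 and 0.615 kb in WT and 3.68, 3.33 and 3.72 kb in DKO, 6.19-fold more in the mean (log2 1.76 ± 0.10 SE, adjusted p = 2.0e-05). Its promoter region chr19:46130687-46131516 had no peak in WT and 26, 24 and 16 summit reads in DKO, and the adjoining region chr19:46131930-46132472 had 15 reads in WT replicate 2 alone among the WT libraries and 21, 27 and 26 in DKO. Kcnk3, a potassium channel of beige and brown adipocytes, went from 0.917, 1.46 and 1.41 kb to 4.74, 3.22 and 3.53 kb (log2 1.13 ± 0.13 SE, adjusted p = 0.0014). Ppargc1b, the PGC-1 beta coactivator, went from 8.26, 9.76 and 9.82 kb to 19.4, 17.9 and 13.8 kb (log2 0.67 ± 0.09 SE, adjusted p = 0.0032), and the beta-3 adrenergic receptor gene Adrb3 from 4.06, 5.08 and 5.85 kb to 8.47, 6.98 and 8.97 kb (log2 0.49 ± 0.11 SE, adjusted p = 0.025). In each of these 4 genes the groups did not overlap, as in 31.2% of all genes with DKO higher. Cox8b, Prdm16, Pdk4, Ckb, Plin5 and Cpt1b also rose. Plin5, Cpt1b and Adrb3 were already counted in lists above. Prdm16, a determinant of brown fat fate, went from 1.73 ± 0.351 kb to 3.31 ± 0.787 kb (log2 0.60 ± 0.14 SE, adjusted p = 0.032).

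Other thermogenic genes did not pass the test in this window. Ppargc1a, the PGC-1 alpha coactivator, had 1.41, 2.21 and 2.04 kb in WT and 2.51, 2.11 and 2.27 kb in DKO (log2 0.08 ± 0.11 SE, adjusted p = 0.72), and Cidea had 0.302, 0.685 and 0.323 kb against 1.13, 0.70 and 0.624 kb (log2 0.33 ± 0.18 SE, adjusted p = 0.31). The values of both genes overlapped. Ppara, the nuclear receptor of fatty acid oxidation, had 2.01, 2.002 and 2.16 kb against 3.52, 3.71 and 2.70 kb (log2 0.40 ± 0.11 SE, adjusted p = 0.052), and Cox7a1 had 0.763, 0.789 and 0.87 kb against 1.22, 1.30 and 1.03 kb (log2 0.20 ± 0.12 SE, adjusted p = 0.34), both without overlap as deposited. Ucp1, the uncoupling protein of brown fat, had no peak in its window in any of the 6 libraries. A weak region 11.9 kb upstream (chr8:83278013-83278608, printed above in part) had no peak in the 3 WT libraries and 13, 11 and 11 summit reads in the 3 DKO libraries. With a window from 20 kb upstream, Ucp1 could be tested and passed (log2 0.79 ± 0.21 SE, adjusted p = 0.033), as did Ppara (0.70 ± 0.096 SE, adjusted p = 0.0015). This window takes in the weak Ucp1 region, whose peaks were in DKO alone, so the Ucp1 result is not separate support. Without centring Ppara passed as well (0.57, adjusted p = 0.028).

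Of 9 genes gathered from the study's text as brown adipocyte or browning genes (Ucp1, Ppargc1a, Ppargc1b, Cidea, Elovl3, Cox7a1, Ide, Ppara and Adrb3), 8 could be tested and 4 rose (Elovl3, Ppargc1b, Ide and Adrb3), with all 8 fitted differences above 0. Ear2, which the study also names, was not in this list and had no peak in its window in any of the 6 libraries. Ide had no peak in WT and met the gene filter through its DKO peaks alone. At Ide the local background was also raised in DKO, as described below with the intervals. The study named Ucp1, Cidea, Ide and Ppara, and its 4 white genes, with H3K27ac as well as transcript levels of this time course in view, so the direction of these is not independent evidence. It named the others from transcript levels, in the case of Ppargc1b and Adrb3 from differentiating mouse embryonic fibroblasts and not from these preadipocytes. Of its 4 white adipocyte genes 2 fell. Galnt9, an enzyme that starts mucin-type glycans, had 15.7, 19.2 and 18.5 kb in WT and 9.64, 7.05 and 7.31 kb in DKO (log2 −1.28 ± 0.09 SE, adjusted p = 8.4e-05). Pnp2, a purine nucleoside phosphorylase, had 2.68, 3.15 and 2.68 kb against 0.362, 0.288 and 0.285 kb (log2 −2.20 ± 0.11 SE, adjusted p = 1.3e-05). Neither overlapped between genotypes. Adamts5, a matrix protease, and Slc6a6, a taurine transporter, did not pass at this day (log2 −0.07 ± 0.07 and 0.02 ± 0.09 SE, adjusted p = 0.58 and 0.92).

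Matrix and progenitor genes were split, beside 5.57% higher and 1.86% lower over all genes. Of 36 matrix genes 3 rose (Timp3, Col5a3 and Col15a1) and 4 fell (Fbn1, Col3a1, Mmp2 and Col1a2), with a median of −0.07. The fibrillin gene Fbn1 had 89.2, 111 and 112 kb in WT and 107, 93.4 and 90.2 kb in DKO (log2 −0.26 ± 0.05 SE, adjusted p = 0.014), values that overlap as deposited. The collagen genes Col3a1 and Col1a2 and the gelatinase gene Mmp2 likewise overlapped as deposited (log2 −0.31, −0.33 and −0.43 after centring, adjusted p = 0.020, 0.040 and 0.022). Without centring, the differences of these 3 genes were −0.15, −0.17 and −0.27 and that of Fbn1 −0.10, and none of the 4 passed. Among 25 preadipocyte and stromal progenitor genes 4 fell (Anxa3, Pdgfra, Dpp4 and Klf3) and 2 rose (Zfp423 and Icam1). Dpp4, a marker of early progenitors, had 1.56, 3.21 and 2.52 kb in WT and 1.24, 1.48 and 1.55 kb in DKO (log2 −0.74 ± 0.16 SE, adjusted p = 0.025), the lowest WT value lying just above the highest DKO value. Without centring its difference was −0.57 and did not pass (adjusted p = 0.11). Zfp423, a factor that commits preadipocytes and restrains thermogenesis, rose from 6.91, 8.82 and 9.66 kb to 13.99, 14.6 and 13.5 kb (log2 0.54 ± 0.08 SE, adjusted p = 0.0046). Of the 5 non-adipogenic genes that the study named from transcript levels, Col1a2, Col3a1, Mmp2 and Anxa3 fell, and Mmp3 had a log2 difference of −0.33 ± 0.23 SE (adjusted p = 0.43).

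Inflammatory genes gave 4 of 33 lower and 2 higher, beside 1.86% lower and 5.57% higher over all genes. Cxcl5, a chemokine of neutrophil recruitment, had 3.50, 3.15 and 3.37 kb in WT and 1.75, 1.36 and 1.121 kb in DKO (log2 −1.182 ± 0.12 SE, adjusted p = 9.2e-04). The chemokine genes Ccl8 and Cxcl14 fell by 0.72 and 0.98 on the log2 scale (adjusted p = 0.0072 and 0.012) and Ifit3 by 0.52 (adjusted p = 0.044), whereas Cxcl12 and Lcn2 rose by 0.41 and 0.49 (adjusted p = 0.029 and 0.047). Most of the remaining classes had few calls. The shares called in either direction for TCA cycle and respiratory chain (9.52%), cholesterol synthesis (9.09%) and AP-1 genes (9.09%) were near the 7.43% of all genes. Larger shares were called among other transcription factors of adipogenesis (22.6%) and among the 8 genes of the HMGN and related families (25%). TCA cycle and respiratory chain genes gave 4 of 42 higher (Idh3a, Suclg2 and Cox5a among them) and a median of 0.05, cholesterol synthesis 2 of 22 higher (Hmgcs1 and Insig1), and other transcription factors of adipogenesis 3 of 31 higher (Nfib, Zfp423 and Stat5a) and 4 lower (Nr2f2, Egr1, Klf3 and Rxrb). Of 11 AP-1 genes Fosl1 rose, of 19 clock genes Hlf rose, of 28 contractile and TGF-beta genes Smad7 and Myocd fell, of 30 Hox genes Hoxa7 and Hoxc12 fell, and of 8 genes of the HMGN, HMGA and HMGB families Hmgn2 and Hmga2 fell. Hmga2 overlapped as deposited (log2 −0.48, adjusted p = 0.016) and did not pass without centring (−0.32, adjusted p = 0.19), with the 20000 highest peaks (adjusted p = 0.55) or by highest summit (adjusted p = 0.37). By limma 0 of 27 cell cycle genes passed (1 higher and 3 lower at an unadjusted p under 0.05, median −0.12), and 0 of 56 ribosomal protein genes (2 higher and 3 lower unadjusted, median −0.10). The 2 with the smallest p were Cdkn1a and Cdkn2a in the first class (log2 −0.26 and −0.30, adjusted p = 0.060 and 0.087) and Rpl11 and Rpl13 in the second (0.38 and −0.26, adjusted p = 0.077 and 0.11).

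**Figure D2:**
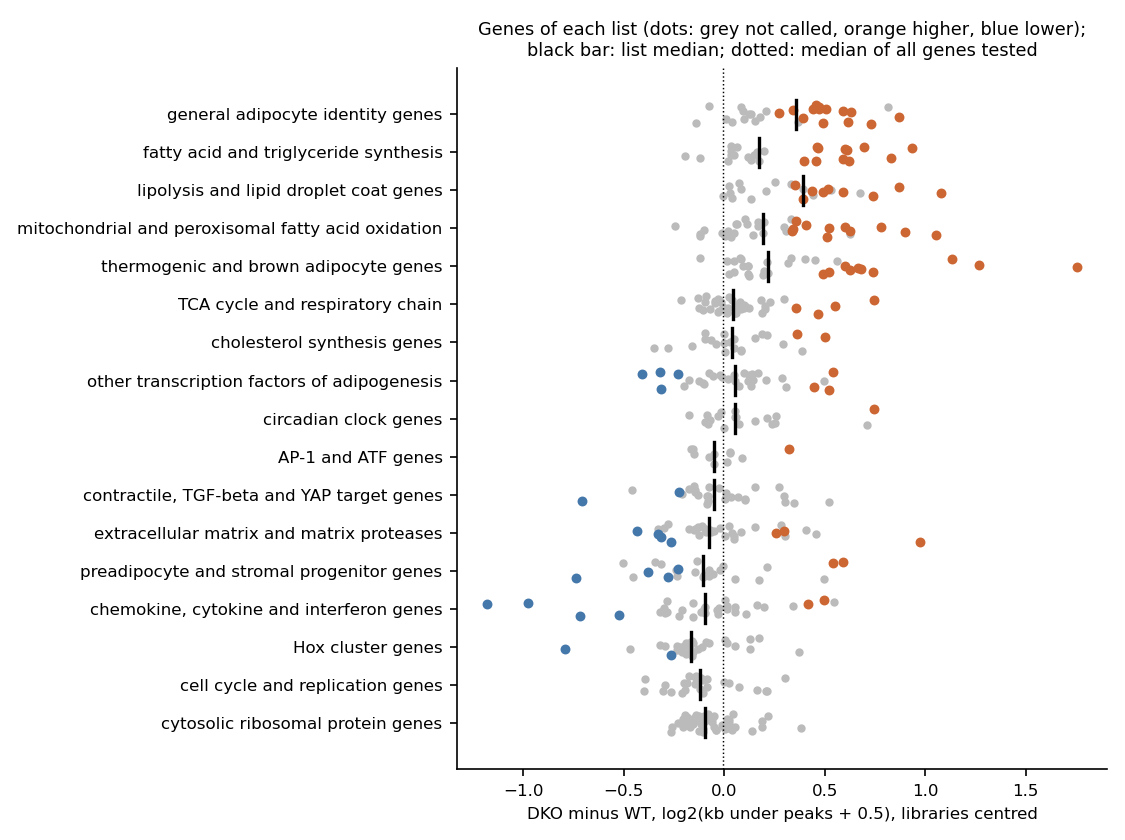
Each dot is a gene and its fitted DKO minus WT difference in log2(kb under peaks + 0.5), with libraries centred, in rows by gene class, where orange is higher and blue lower at an adjusted p under 0.05. The black bars, the class medians, lie right of the dotted median of all genes for the fat handling and adipocyte classes (0.18 to 0.39), and close to or left of it for matrix, progenitor and ribosomal protein genes (−0.07 to −0.10).

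The calls depended on how length was counted. The share of genes called higher in DKO moved with peak coverage, from 2.88% of the 3155 genes below 1 kb to 12.4% of the 1529 genes with 5 to below 10 kb and 15.2% of the 651 genes with 10 to below 20 kb, and was 7.82% of the 307 genes with 20 kb or more. With the 20000 highest peaks per library 129 genes were higher and 74 lower (1.21% and 0.695% of 10640), among them 4 of 25 adipocyte identity, 3 of 23 lipogenic, 3 of 30 oxidation, 1 of 20 lipolytic and 1 of 17 thermogenic genes, all higher. With peaks of at least 30 summit reads alone, 96 genes were higher and 11 lower (0.858% and 0.0983% of 11193), and 2 adipocyte identity, 2 thermogenic, 2 lipogenic, 1 lipolytic and 2 oxidation genes passed, although the class medians stayed between 0.26 and 0.47 beside −0.03 over all genes. With the highest summit in the gene window in place of length, the class medians were 0.22 for adipocyte identity, 0.22 for lipolysis, 0.14 for oxidation, 0.09 for thermogenic and 0.07 for lipogenic genes, beside −0.01 over all genes, and 27 genes rose and 27 fell. Hadha and Hadhb were then slightly lower in DKO (both −0.12), and Cox7a1 passed, with 19, 22 and 27 reads in WT against 49, 47 and 35 in DKO (log2 0.74, adjusted p = 0.032). Genes named above went both ways. Pparg, Fasn and Plin5 passed neither with the 20000 highest peaks (adjusted p = 0.19, 0.36 and 0.28) nor by highest summit (0.18, 0.48 and 0.12). Elovl3 and Adora1 could not be tested with the former and did not pass by the latter (0.27 and 0.089). Cd36 and Ppargc1b passed with the former alone (0.022 and 0.024). Galnt9 and Pnp2 passed with the former (0.034 and 0.021) and by the latter (0.0018 and 0.0089). In the lipogenic gene Acacb, whose length rose, the peak of one promoter (chr5:114175277-114175701) was lower in DKO by reads, with 42, 34 and 43 against 33, 21 and 20 (log2 −0.88 ± 0.18 SE, adjusted p = 0.017).

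Markers of the cultured cells and of other cell types were read from the same lists, where the length summed over all genes was also longer in every DKO library. Adipocyte markers covered 53.7 to 63.3 kb in the WT libraries and 84.1 to 88.6 kb in the DKO libraries, with peaks in all 6 libraries at 7 of 8 markers. Brown adipocyte markers covered 4.26 to 6.12 kb in WT libraries against 10.8 to 12.7 kb in DKO libraries, with no peak at the defining markers Ucp1 and Zic1. Preadipocyte markers spanned overlapping ranges, 31.5 to 37.0 kb for WT against 32.0 to 36.1 kb for DKO. Macrophage markers covered 7.999 to 10.9 kb in WT libraries against 11.9 to 15.5 kb in DKO libraries, with 0 of the 7 tested passing by limma, and their part in the results above was not tested. Endothelial markers covered 2.69 to 4.32 and 4.11 to 5.72 kb (Pecam1 rose, and Cdh5, Emcn, Cldn5 and Tie1 had no peak). Skeletal muscle, mesothelial, Schwann cell and epithelial markers covered at most 3.19 kb in any library, and Myod1, Myog, Myf5, Ckm, Upk1b, Sox10, Epcam, Krt5 and Krt14 had no peak. Of the 7 lymphocyte markers none could be tested.

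**Figure D3:**
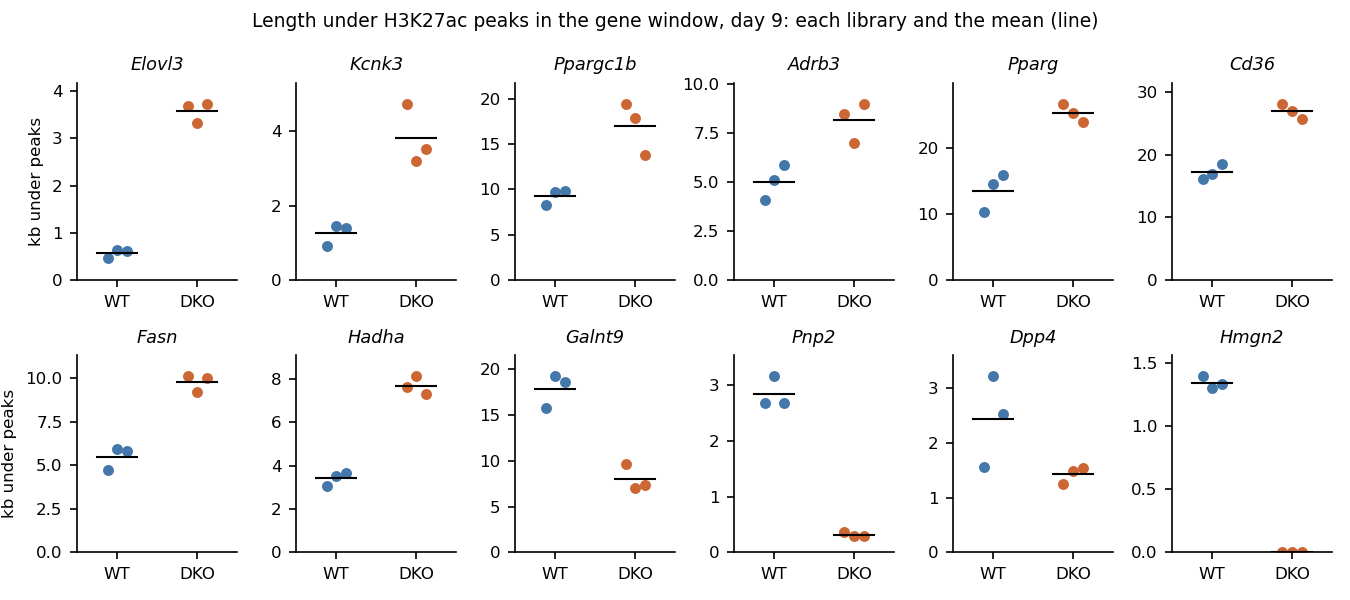
Length under H3K27ac peaks (kb, from 5 kb upstream to the end of the gene) at 12 genes, with each point one library of day 9 and the line the group mean. Elovl3, Kcnk3, Ppargc1b, Adrb3, Pparg, Cd36, Fasn and Hadha lie higher in all 3 DKO libraries, whereas Galnt9, Pnp2, Dpp4 and Hmgn2 lie lower, Hmgn2 at 0 in DKO.

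Over all genes, those with the smallest p were of several kinds. Adora1, the adenosine A1 receptor that restrains lipolysis in adipocytes, had 0.996, 1.11 and 1.181 kb in WT and 5.44, 5.91 and 5.22 kb in DKO (log2 1.75 ± 0.09 SE, adjusted p = 1.3e-05). Egln3, an oxygen-sensing prolyl hydroxylase, went from 2.85, 3.18 and 3.72 kb to 9.52, 9.48 and 9.24 kb (log2 1.24 ± 0.08 SE, adjusted p = 6.1e-05). Kcnj15, a potassium channel, went from 0.965, 0.953 and 0.822 kb to 3.39, 3.29 and 3.16 kb (log2 1.26 ± 0.11 SE, adjusted p = 3.7e-04). In all 3 genes every DKO library exceeded every WT library, as in 31.2% of all genes. Nudt7 and Far2, genes of peroxisomal lipid metabolism, the alcohol dehydrogenase gene Adh1, the urate transporter gene Slc22a12 and the glutamate receptor gene Grik4 also rose (log2 1.181, 1.15, 0.87, 1.45 and 0.92). Among the lower genes, besides Pnp2, Galnt9 and Hmgn2, were Pnp (−0.94), Plxdc2 (−0.82), Cxcl5, the growth factor gene Nrg3 (−1.64), the scavenger receptor family gene Scara3 (−1.30), the glycine receptor gene Glra1 (−1.33) and Il1rn, an antagonist of interleukin-1 (−1.48). Pnp and Pnp2 lie in one cluster (chr14:50.9-51.0 Mb), where 4 overlapping or neighbouring genes were lower and 8 regions had peaks in WT alone.

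Peak by peak, the 6 lists merged into 154698 regions, of which 47384 had a peak in 6 of 6 libraries. Regions with a peak in 3 of 3 DKO and 0 of 3 WT libraries (DKO-specific) numbered 3182, or 2.06%, and the reverse (WT-specific) numbered 947, or 0.612%. With the 20000 highest peaks per library the counts were 440 (1.71%) and 316 (1.23%) of 25704, so the counts of the genotypes lay closer together. The median DKO-specific region was 440 bp wide with 15 summit reads and only 9 reached 30 reads, and the median WT-specific region was 422 bp wide with 14 reads and 8 reached 30, whereas shared regions had a median of 1058 bp and 28 reads and all 154698 regions one of 381 bp and 15.5 reads. DKO-specific regions lay within 1 kb of a transcript start in 13.5% and in introns in 47.5%, and WT-specific regions in 8.87% and 43.1%, against 40.7% and 30.9% of shared regions and 21.3% and 42.6% of all regions. The median distance to the nearest start was 10.97 kb for DKO-specific, 20.8 kb for WT-specific, 5.13 kb for shared and 11.4 kb for all regions.

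The DKO-specific region of highest fold enrichment lay 22.9 kb from Depdc1b (chr13:108291916-108294002) with 61, 63 and 56 summit reads. The next were near Gm5678 (41, 48 and 39), Pou4f1 (24, 38 and 31), at the promoter of the adenylate kinase gene Ak4 (31, 29 and 17) and near Incenp (36, 29 and 20). After the Hmgn2 promoter, the WT-specific regions of highest enrichment lay 3.54 kb upstream of Galnt9 (chr5:110540166-110541043) with 49, 48 and 41 reads, at the promoter of the toll-like receptor gene Tlr6 (25, 34 and 40), in an intron of Scara3 (29, 40 and 42) and near Clec10a, a lectin of macrophages (28, 30 and 36). By nearest gene, Pik3r1, a subunit of the insulin-responsive PI3 kinase, had the most DKO-specific regions (10 of its 203), followed by Zeb2 (9 of 262), Myc (8 of 270), Lpp (7 of 235) and Tomm20 (7 of 96), beside the 2.06% of all regions. Csgalnact1 (6 of 113) and Galnt9 (6 of 37) had the most WT-specific regions, followed by Hes1, Nmur2, Peli2 and Tcf4 (4 each).

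The same regions were then looked up in the 18 libraries of days 0, 3 and 6, which had no part in choosing them. Peaks at DKO-specific regions occurred in 36.7 ± 3.51% of the regions in WT libraries of day 6 and in 19.003 ± 10.2% in DKO libraries of day 6 (SD, n = 3 each), which is the opposite order to day 9. At WT-specific regions the shares were 46.8 ± 2.74% in WT and 6.02 ± 4.24% in DKO at day 6, the same order as day 9. The DKO lists of day 6 were shorter throughout (71.7 ± 11.04% of shared regions against 93.8 ± 0.973% in WT), so the low DKO shares at day 6 have to be read beside that. At day 0, where shared regions were covered to a similar extent (80.5 ± 1.71% in WT and 81.0 ± 3.45% in DKO), DKO-specific regions were found in 23.6 ± 2.05% in WT and 28.9 ± 5.52% in DKO, and WT-specific regions in 41.6 ± 4.70% and 36.7 ± 8.03%, which overlap. At day 3 the DKO-specific shares were 19.4 ± 7.82% and 14.7 ± 3.71% and the WT-specific shares 37.8 ± 15.3% and 17.04 ± 5.76%. Of the DKO-specific regions 590 (18.5%) had a peak in none of the 18 libraries, against 81 (8.55%) of the WT-specific and 136 (0.287%) of the shared regions. The specific regions were also weaker (medians of 15 and 14 summit reads against 28 in shared regions), and no regions of like height were compared.

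**Figure D4:**
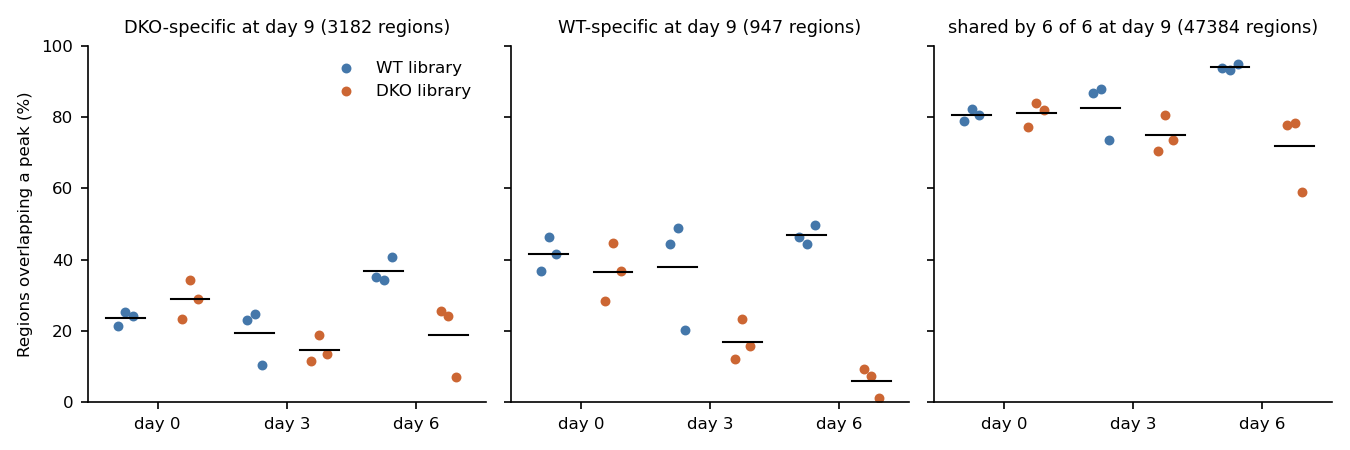
For DKO-specific, WT-specific and shared regions of day 9, the percentage of regions that overlap a peak in each WT (blue) and DKO (orange) library of days 0, 3 and 6, with group means as lines. At day 6 the WT-specific regions keep a gap between WT (44.5 to 49.8%) and DKO (1.27 to 9.40%), while DKO-specific regions are more often covered in WT than in DKO.

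At the 47384 shared regions the deposited fold enrichment was higher in DKO at 2052 (4.33%) and lower at 2089 (4.41%). The 8 strongest in each direction were mostly promoters. Those higher included the promoters of Exo1, Mrpl34, Rab11b, Apoc1 and Akap1 and an intron of Tbc1d1, and those lower were the promoters of Sart3, Bcl3, Nup85, Ptp4a1, Babam2 and Wdr46, an intron of Farp1 and one more region. That region, and one among those higher, lay at an annotated transcript start but 19.6 kb from Zfp846 and 1.39 kb from Ccnd2, the nearest protein-coding genes. At the Exo1 promoter, for example, fold enrichment was 16.6, 16.8 and 17.6 in WT and 43.7, 43.1 and 41.7 in DKO (log2 1.24 ± 0.14 SE, adjusted p = 1.1e-05), yet its summit held 111, 121 and 120 reads in WT and 155, 136 and 130 in DKO (log2 0.09 ± 0.10 SE, adjusted p = 0.75). Fold enrichment is a quotient of the summit pile-up and a local background, and both could be recovered from the deposited fold and p-value. By summit reads, 155 regions were higher (0.327%) and 62 lower (0.131%), with 3762 and 2968 at an unadjusted p under 0.05.

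The local background moved with the fold enrichment calls. Its log2 value correlated at 0.635 to 0.647 between libraries of one genotype (6 pairs) and at 0.192 to 0.202 between genotypes (9 pairs), across regions that share the genome's base composition and mappability. Over regions, the DKO minus WT difference in background had a Pearson r of −0.753 with the difference in fold enrichment and of 0.0903 with that in summit reads, given as a description because regions are not independent. The background was itself solved from the fold enrichment, so its opposition to these calls is in part built into the ratio. The background differed by at least 0.665 on the log2 scale at each of the 16 strongest regions, always against the direction of the call, and of these only Apoc1 (higher) and Ptp4a1 (lower) also passed by reads. Where the background was lowest in DKO (median log2 −1.13, 525 regions) 75.6% of regions were called higher by fold enrichment and 0 lower, and where it was highest (median 1.116, 464 regions) 77.2% were called lower. At the 796 genes with longer peaks in DKO the median background difference was −0.016, and at the 266 lower genes 0.081, beside 0.019 over all genes.

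**Figure D5:**
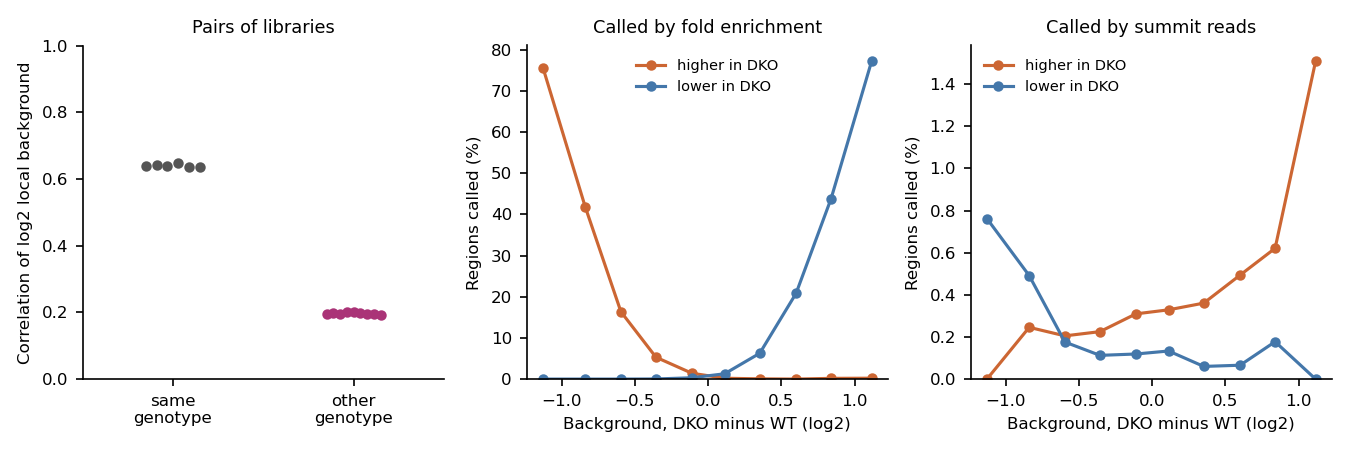
Left, the correlation across shared regions of the log2 local background for pairs of day 9 libraries of the same genotype (0.635 to 0.647) and of the other genotype (0.192 to 0.202). Middle and right, the percentage of regions called higher (orange) or lower (blue) in DKO by fold enrichment and by summit reads in bins of the background difference, where calls by fold enrichment run from 75.6% higher to 77.2% lower and calls by reads stay at or under 1.51%.

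Both measures together called 89 regions higher and 38 lower. The promoter of Acot6, an acyl-CoA thioesterase of peroxisomes, had 18, 23 and 28 summit reads in WT and 59, 49 and 54 in DKO (chr12:84100501-84101688, log2 1.08 ± 0.17 SE, adjusted p = 2.3e-04), with a background difference of −0.10. The region 10.9 kb upstream of Ppara (chr15:85723719-85724280) had 18, 14 and 16 reads in WT and 40, 36 and 34 in DKO (log2 1.03 ± 0.19 SE, adjusted p = 0.0062). In both, each DKO library exceeded each WT library, an order that 4511 of the 47384 shared regions showed in centred summit reads. An intronic region of the laminin gene Lamb3 (21, 22 and 24 against 56, 47 and 46) and the Apoc1 promoter region (40, 39 and 49 against 88, 70 and 73) were higher too, as was a region beyond the 3′ end of Egln3, 40.4 kb from its start (24, 39 and 35 against 68, 56 and 59). Among the lower regions the Galnt9 intron (chr5:110602202-110605970) had 43, 61 and 58 reads in WT and 29, 25 and 24 in DKO (log2 −1.21 ± 0.16 SE, adjusted p = 8.7e-06). Regions near Smarca1, Ktn1 and Snx13 and in introns of Col28a1 and the actin regulator gene Vasp were lower as well, at −1.04, −0.88, −0.94, −0.80 and −0.62.

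Several intervals, picked after the values were seen, held calls side by side. Around Galnt9 (chr5:110.4-110.8 Mb) 8 of 17 shared regions were lower by reads, none was higher and 11 regions were WT-specific, and the interval held 55.7 peaks per WT library and 34.7 per DKO library, against 47.0 and 12.3 at day 6. Near Hmgn1 (1 Mb on either side) 5 of 28 shared regions were higher by reads, the Hmgn1 promoter and 4 regions at Kcnj15, beside 0.327% of all shared regions, while near Hmgn2 0 of 140 were called (9 higher and 7 lower at an unadjusted p under 0.05, by limma). The Kcnj15 region printed above had 18, 16 and 18 reads in WT and 50, 35 and 32 in DKO (log2 0.98 ± 0.19 SE, adjusted p = 0.0087). The local background of the Kcnj15 interval was not raised at day 9 (0.917 of the library median in WT and 0.843 in DKO). At day 6 it was higher in DKO, 1.01 ± 0.0428 against 0.815 ± 0.00942 in WT (SD).

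In 3 other intervals the background itself was raised in DKO at day 9 as well as at day 6. At Ide and Kif11 (chr19:37.25-37.40 Mb) it was 1.09 ± 0.0978 of the library median in WT and 1.73 ± 0.0597 in DKO at day 9, and 0.992 and 1.995 at day 6. At Dynlt1b (chr17:6.38-6.50 Mb) WT and DKO had 0.777 and 1.52 (day 9) and 0.723 and 2.01 (day 6). Fgfbp3 and Btaf1 (chr19:36.90-36.94 Mb) had 0.891 and 1.58 (day 9) and 0.986 and 1.59 (day 6). By summit reads 3 of 3, 4 of 4 and 2 of 3 shared regions there were higher in DKO, in the same order. A region beyond the 3′ end of Ide, the insulin-degrading enzyme, lay 26.7 kb from an annotated transcript start inside that gene. It had 57, 65 and 66 reads in WT and 161, 155 and 133 in DKO (log2 1.09 ± 0.11 SE, adjusted p = 1.6e-08), with a background difference of 0.95. In the window of Ide itself there was no peak in WT and 1.196, 1.05 and 0.909 kb in DKO (log2 1.47 ± 0.16 SE, adjusted p = 0.0013). The part of the raised background in the Ide result was not tested.

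Motif content of the 20000 highest peaks was counted within 100 bp of the summit on both strands, and none of 8 motifs could reach significance with 3 against 3 libraries. AP-1 (TGACTCA or TGAGTCA) was found in 2.14 ± 0.0777% of WT and 2.06 ± 0.0889% of DKO peaks, C/EBP (TTGCNNAA) in 5.67 ± 0.0493% and 5.73 ± 0.224%, and the PPAR DR1 element (a direct repeat of AGGNCA with a single spacer base) in 0.292 ± 0.0407% and 0.265 ± 0.0278%. TEAD (CATTCCA) was the only motif whose groups did not overlap, at 2.44% in WT and 2.51% in DKO (exact permutation p = 0.1, adjusted over 8 tests 0.64). The palindromes of EBF, NF1 and the glucocorticoid receptor and the ETS motif (CCGGAAG) had exact permutation p of 0.3 or more. Among DKO-specific regions 20 of 3182 (0.629%) held the PPAR element against 1 of 947 (0.106%) of WT-specific and 0.443% of all regions, and AP-1 was held by 3.21%, 4.33% and 3.61% in the same order, counts given without a test.

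The day 9 difference was finally set against that of day 6 in one model with the interaction of day and genotype. Of 14572 genes, the DKO minus WT difference was higher at day 9 at 1844 (12.7%) and lower at 695 (4.77%). With the 20000 highest peaks per library the counts were 90 and 40. With all peaks, 25 of 36 matrix genes were higher, whose median difference was −0.68 at day 6 and −0.07 at day 9, whereas of the 28 adipocyte identity genes 3 were higher and 3 lower, with medians of 0.36 at both days. Thermogenic genes gave 4 of 31 higher and 1 lower, with medians of 0.25 and 0.22. Elovl3 was at 1.80 at day 6 and 1.76 at day 9 on the log2 scale (interaction −0.05, adjusted p = 0.95), while Pparg was at −0.14 at day 6 and 0.73 at day 9 (interaction 0.87, adjusted p = 0.014). Among the white genes of the study, Galnt9 was at −2.88 at day 6 and −1.28 at day 9 and Pnp2 at −2.16 and −2.20. The DKO lists of day 6 held 74867, 71869 and 47448 peaks against 98503 to 105511 in WT, and their part in the interaction was not tested beyond the centring of each library.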

How the data were processed

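H3K27ac ChIP-seq peak lists of 6 libraries (3 WT, 3 DKO, day 9) were analysed, with the 18 lists of other days for lookup. The authors trimmed single-end reads (cutadapt 1.18 after bcl2fastq 2.17, per the labels), aligned them to mm10 with BWA and called peaks per library with MACS2 2.1.1.20160309. Which input library served as control is not given in the sources used here, and the 16 input libraries were not analysed here. The labels list fewer input libraries than H3K27ac lists for each genotype at day 9, so lists may share a control. In that case the p-values for fold enrichment would leave out the spread of the control. The deposited lists give for each peak a fold enrichment (a ratio), the −log10 p-value, the −log10 q-value, a score and a summit position, and no read totals, so library depth is known only through recovered reads. Each deposited fold enrichment and p-value was solved for the summit pile-up and the local background, which gave whole reads within 0.02 for 100% of peaks in the lists of days 6 and 9. Intervals from such reads would cover counting error only, and none are given.

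Regions were merged over the 6 lists at 1 bp overlap. Genes were the protein-coding genes of GENCODE mouse M21, and promoters were within 1 kb of a transcript start. Fits used limma 3.58.1 in R 4.3.3 with a trend and Benjamini-Hochberg adjustment at 0.05 over all regions or genes tested, on libraries centred on their median, the pseudocount being 0.5 kb, for genes with a peak in at least 3 libraries. Some genes, such as Ide, Hmgn2 and Hoxc12, met this filter through the libraries of 1 genotype alone. Library values used exact two-sided permutation tests over 20 relabellings. The scripts were tested on simulated data. The study's methods use DiffBind on aligned reads, which the lists do not allow. The labels number the replicates but do not say that numbers pair libraries, and do not give separate animals per library, while the study describes biological replicates, so p-values measure the spread between these libraries.

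Named genes were Hmgn1, Hmgn2, the genes the study names, up to 4 genes with the smallest p per list (up to 2 where none passed), and 10 genes per direction over all genes. Named regions were 8 per direction in the fold enrichment fit and 5 per specific set, with the 5 genes nearest to the most of these. Some of these are not reported here. Other regions and intervals were chosen after their values were seen. The members and lists were chosen with earlier results of these data known. Alternatives were another scaling, peak filter, window, pseudocount, weighting, read height, a replicate block and each library left out.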

Additional observations from a re-analysis of the deposited data

Results flagged for a closer look

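Both counts and 9 named genes below were singled out because the DKO minus WT difference in log2(kb under peaks + 0.5) was not the same at day 9 as at day 6, by limma's interaction term at an adjusted p under 0.05. It was higher at day 9 at 1844 genes and lower at 695. Of the genes that the study names, the day 9 difference exceeded that of day 6 by 2.16 at Mmp3, 1.603 at Galnt9, 1.14 at Cidea, 1.123 at Mmp2, 0.99 at Ide, 0.81 at Col1a2, 0.70 at Slc6a6, 0.59 at Adamts5 and 0.45 at Col3a1 on the log2 scale. Ide had no peak in its window in either genotype at day 6, so its day 6 value of 0.48 came from the centring of libraries alone. At Mmp3, Mmp2, Col1a2, Col3a1, Adamts5 and Slc6a6 the day 6 differences were −2.48, −1.56, −1.14, −0.76, −0.66 and −0.68. The brown gene Cidea was also lower in DKO at day 6 (−0.81, mean 0.873 kb in WT and 0.0627 kb in DKO) and stood at 0.33 at day 9. The DKO lists of day 6 held 47448 to 74867 peaks, fewer than any other list of days 6 and 9, and with the 20000 highest peaks per library the counts were 90 and 40.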

How the results depend on the processing

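The differences in peak number and covered length kept their direction under the alternatives run, as did the medians of the adipocyte identity, lipogenic, lipolytic, oxidation and thermogenic lists with the 20000 highest peaks, with peaks of at least 30 summit reads and by highest summit. Counts of calls moved, and the cause was not tested. The promoter share turned with the 20000 highest peaks (1.34 percentage points higher in DKO), where DKO-specific and WT-specific regions numbered 440 and 316. Fold enrichment called 3101 regions higher and 1233 lower without centring, 754 and 802 with the 20000 highest peaks, 155 and 62 by summit reads, and, in settings chosen after seeing the data, 7 and 5 by summit reads in the 20000 highest peaks. Genes higher and lower numbered 129 and 74 with the 20000 highest peaks, and, in settings chosen after seeing the data, 96 and 11 with peaks of at least 30 summit reads and 27 and 27 by highest summit. Lower genes numbered 36 without centring, 504 with 20 kb upstream and 965 weighted by fold enrichment. The day interaction gave 8099 higher and 10 lower without centring and 90 and 40 with the 20000 highest peaks. Within 250 bp of the summit, the motif differences turned for the PPAR DR1 element (0.028 percentage points), the glucocorticoid receptor (−0.0017) and TEAD (−0.025).

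With each library left out in turn, the differences ranged from 4696 to 14833 peaks, from 5.45 to 11.2 Mb and from −2.08 to −0.507 percentage points for promoters, and from −0.062 to 0.158 for C/EBP and from −8.3e-04 to 0.0042 for NF1 motifs. The counts ranged from 3926 to 6619 DKO-specific and 1380 to 3103 WT-specific regions, fewer libraries being required, from 1087 to 1299 regions higher and 1101 to 1469 lower by fold enrichment, and from 351 to 718 genes higher and 117 to 269 lower. Higher and lower genes numbered 351 and 128 without DKO replicate 1, 401 and 122 without DKO replicate 2, and 429 and 117 without DKO replicate 3. Lower genes numbered 151 without WT replicate 2 and 130 without WT replicate 3. By fold enrichment, leaving out any of the 6 libraries lowered the number of regions called higher by over 1.5 times.

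Same-numbered libraries did not deviate together (correlations of −0.08 to 0.01 over genes and regions), so replicate numbers were not read as pairs. With a replicate block, 2015 regions were higher and 2041 lower by fold enrichment, 174 and 72 by summit reads, 665 genes were higher and 182 lower, and the day interaction gave 1693 and 466. Of the named genes, Col1a2 (−0.33) and Col3a1 (−0.31) among 8 no longer passed under the block.

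Single genes changed sign in some settings. By highest summit these included Rpl13 (0.058), Cidea (−0.26), Slc6a6 (−0.24), Hadha (−0.12), Hadhb (−0.12), Zfp423 (−0.059), Icam1 (−0.18), Hlf (−0.14), Insig1 (−0.023), Cxcl12 (−0.24) and Pecam1 (−0.079). With peaks of at least 30 reads they included Ppargc1a (−0.070), Slc6a6 (−0.0030), Cox5a (−0.10), Hmgcs1 (−0.017) and Nudt7 (−0.29), and with the 20000 highest peaks Rpl11 (−0.045), Slc6a6 (−0.25), Cox5a (−0.015), Hmgcs1 (−0.29) and Nudt7 (−0.20). Slc6a6 also turned with a pseudocount of 0.1 kb (−0.0053), 20 kb upstream (−0.0012) and weighting by fold enrichment (−0.067), as did Insig1 under the weighting (−0.22). Adamts5 turned without centring (0.095), and Cidea (−0.051) and Mmp3 (0.043) with a −log10 q of at least 5. With single libraries left out, Ppargc1a ranged from −0.020 (without WT replicate 1) to 0.142 and Slc6a6 from −0.067 (without WT replicate 1) to 0.084, and Slc6a6 was also negative without DKO replicate 1.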
